A study of Mus musculus with 9 samples.

Results

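The ERK pathway feedback and output genes are a set of 10 mouse genes that Ras-ERK signalling is known to switch on, and 9 of them were measured here among 12393 genes. A member was taken where the platform annotation gave a probe set exactly 1 gene symbol and that symbol was on the list, which yielded 15 of 22690 probe sets. The measured members were the negative regulators Dusp6, Spry2, Spry4 and Spred1, the transcription factors Etv5, Fosl1 and Egr1, and the early response genes Phlda1 and Ier3. No probe set used here carried the symbol Dusp4 alone, and that phosphatase was not analysed here. The brightest probe set of a gene, by its mean over all arrays, stands for the gene, and its other probe sets are given beside it.

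In this pathway an activated growth factor receptor loads Ras proteins with GTP, and Ras then starts a kinase chain of Raf, MEK and ERK. Active ERK phosphorylates transcription factors in the nucleus and so raises the transcripts of early genes such as Egr1 and, when signalling lasts, of Fosl1. Several of the induced genes act back on the pathway: dual-specificity phosphatases such as Dusp6 dephosphorylate ERK, and Sprouty and Spred proteins restrain the activation of Ras and Raf. In fibroblasts, serum growth factors are a well known driver of this response.

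Affymetrix arrays were run on 3 mouse fibroblast lines with 3 arrays each. The SV5-NN4 line is a stable NIH 3T3 clone that expresses both SV40 large T antigen and wild-type N-ras, the SV5 line is a stable NIH 3T3 clone transformed by SV40 large T antigen, and the NIH 3T3 line is the wild-type parent. Large T antigen transforms cells by binding the retinoblastoma proteins and p53. All 3 lines were grown in medium with 10% calf serum. SV5 and SV5-NN4 are 1 clone each, so that an added gene and a difference between clones cannot be told apart, and no source used here gives the promoter that drives the added N-ras. Equal replicate numbers were treated as pairs, and because the labels do not say whether replicates came from separate cultures, p-values measure the spread between arrays, which may be technical.

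Values are log2(intensity + 1), a scale that slightly understates differences of dim probe sets. The median intensity of an array lay between 56.2 and 62.4. Its upper quartile lay between 165.2 and 239.7 and was highest on replicate 3 of each line, so the arrays did not share 1 distribution. On the same arrays 9 bacterial control probe sets lay between 3.18 and 4.25 on the log2 scale, which is taken as the floor. The 8 fibroblast markers had line means of 8.9 to 12.99 (log2), while epithelial, leukocyte and endothelial markers had line means of 3.54 to 6.67. Summed intensities of the fibroblast markers were 24480 to 39700 on SV5-NN4 arrays, 35430 to 54790 on SV5 arrays and 23710 to 48720 on NIH 3T3 arrays. Between SV5-NN4 and SV5, 7 of the 8 fibroblast markers were lower in SV5-NN4, with a median of -0.53, and 1 of them, the collagen gene Col3a1, named after its values were seen, was called lower (-1.05, SE 0.15, adjusted p = 0.034 in limma). Nras, the gene added in SV5-NN4, had log2 levels of 8.23, 8.03 and 8.45 on the SV5-NN4 arrays, against 8.43, 7.76 and 8.34 on the SV5 arrays and 7.42, 7.1 and 7.85 on the NIH 3T3 arrays. SV5-NN4 and SV5 overlapped at Nras, and the difference of 0.06 (SE 0.14, 0.27 and 0.05 at the other probe sets) gave no check of the labels, since no source used here says which part of the transcript was added. Relative to NIH 3T3, Nras differed by 0.78 in SV5-NN4 (SE 0.14, adjusted p = 0.052 in limma), and of its other probe sets 1 was called higher, by 1.02 (SE 0.18, adjusted p = 0.046), and 1 differed by 0.24 (SE 0.15, adjusted p = 0.46). The matching differences of SV5 from NIH 3T3 were 0.72, 0.97 and -0.03, with adjusted p of 0.12, 0.12 and 0.95. The 3' minus 5' difference of the Actb control probe sets, which reflects RNA integrity, was larger in SV5-NN4 than in SV5 by 0.34, 0.3 and 1.24 (log2) in the 3 pairs, and that of Gapdh by 0.21, 0.49 and 0.69. On NIH 3T3 replicate 3 that difference was 5.21 for Gapdh, against 2.36 to 3.52 on the other 8 arrays.

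Promoter windows of 5 members were used from RefSeq's table for GRCm38.p6, and the 250 bases before the start site are shown for 3 of them. A chromosome of that table was left out, and Spry4, Fosl1, Egr1, Phlda1 and Dusp4 were not searched. Spry2 and Ier3 are shown because they differed about 2-fold between SV5-NN4 and SV5 in opposite directions, and Dusp6 because its level varied several-fold between arrays of each line. Capitals mark the core GGAA of binding sites for Ets factors, a family that ERK phosphorylates, on either strand (TTCC on the strand shown). The Spry2 window is chr14:105896820-105897069 on the minus strand, the Ier3 window chr17:35821463-35821712 on the plus strand and the Dusp6 window chr10:99262981-99263230 on the plus strand.
Spry2: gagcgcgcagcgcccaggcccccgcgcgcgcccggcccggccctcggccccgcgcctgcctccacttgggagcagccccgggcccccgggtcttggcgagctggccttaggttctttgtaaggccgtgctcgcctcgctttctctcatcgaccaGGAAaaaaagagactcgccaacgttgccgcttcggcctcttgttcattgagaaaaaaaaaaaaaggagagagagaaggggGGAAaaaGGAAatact
Ier3: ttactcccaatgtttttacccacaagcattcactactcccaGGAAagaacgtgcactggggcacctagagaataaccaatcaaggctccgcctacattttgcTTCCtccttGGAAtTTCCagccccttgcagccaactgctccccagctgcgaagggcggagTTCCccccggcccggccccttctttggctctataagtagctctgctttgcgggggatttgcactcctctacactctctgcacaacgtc
Dusp6: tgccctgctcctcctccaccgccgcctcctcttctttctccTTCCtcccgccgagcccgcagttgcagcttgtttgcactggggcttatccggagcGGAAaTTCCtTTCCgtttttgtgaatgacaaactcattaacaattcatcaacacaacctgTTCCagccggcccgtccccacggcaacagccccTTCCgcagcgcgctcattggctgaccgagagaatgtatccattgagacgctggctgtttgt
The core occurred 3 times in the Spry2 window, 5 times in the Ier3 window and 6 times in the Dusp6 window. It is short, and 93.4% of 32851 promoter windows of the same length held it at least once. None of the windows of these 5 genes held the longer Ets site CCGGAA, of which the core is part, the AP-1 site TGANTCA, the cAMP response element TGACGTCA or the CArG box of the serum response element. Those motifs occurred on either strand in 12%, 6.75%, 1.55% and 1.47% of all windows.

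Setting SV5-NN4 against SV5 asks how these outputs differ when T antigen-transformed cells also carry added wild-type N-ras. Members differed in both directions: Fosl1 and Ier3 had about 2-fold higher signal in SV5-NN4, Phlda1 was 1.57-fold higher, and the feedback inhibitor Spry2 was 2.22-fold lower. None of these differences passed the test over all probe sets, limma with replicate numbers as a block and Benjamini-Hochberg adjustment. Of the 9 measured members 0 were called at an adjusted p under 0.05, where 1.05% of 12393 genes were called. At an unadjusted p under 0.05 there were 4 members, Fosl1, Phlda1, Ier3 and Spry2, where 14.6% of all genes lay. Differences of 2-fold or more were found for 3 members and for 2.87% of all genes. In bulk RNA, fewer cells that express a gene and less of its RNA per cell cannot be told apart.

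**Figure D1:**
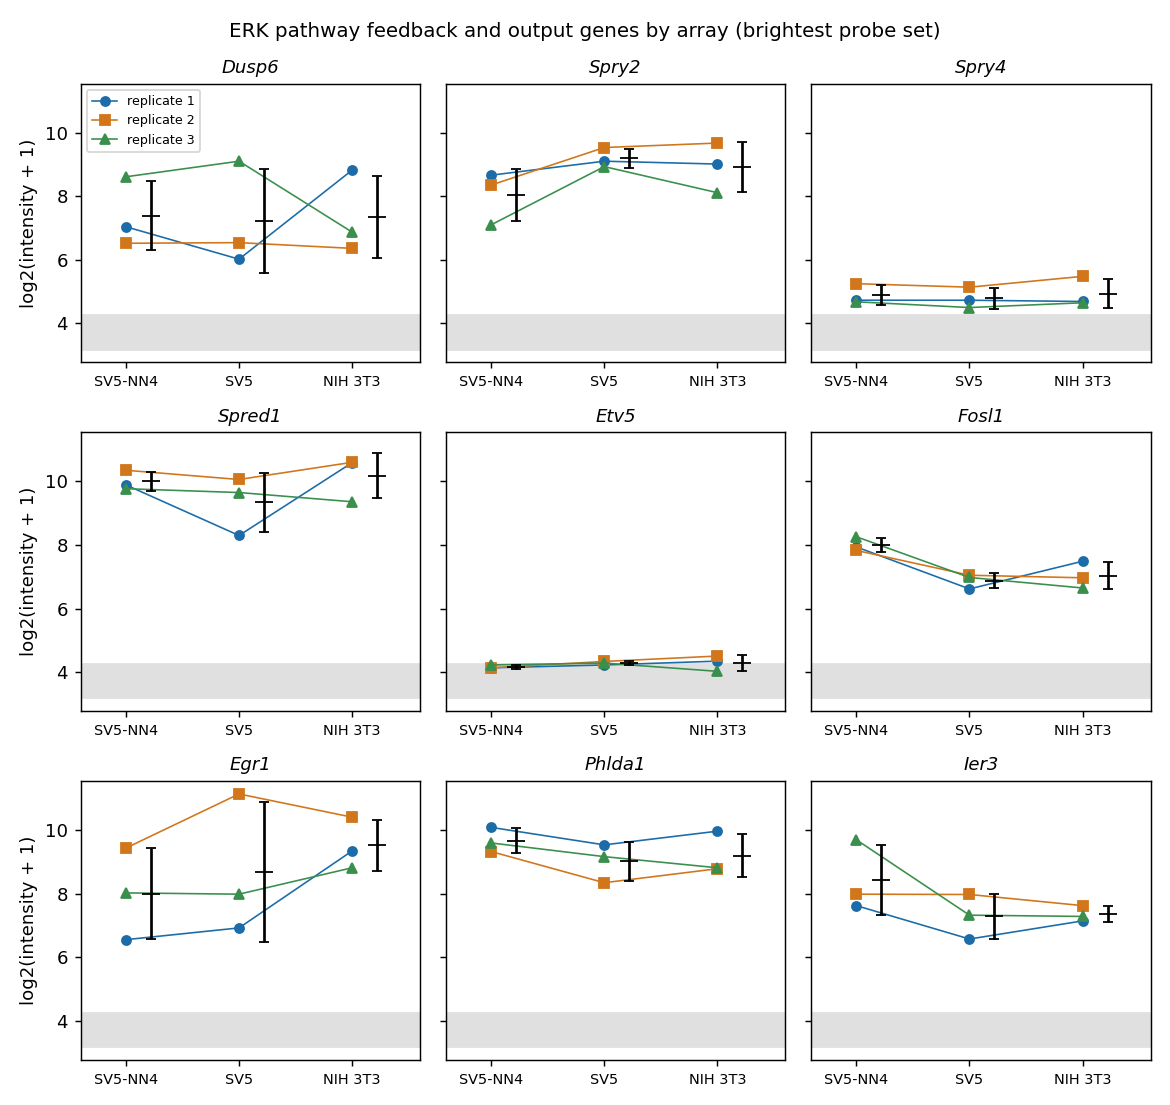
Level of each measured member on each array, as log2(intensity + 1) of its brightest probe set, with equal replicate numbers joined by a line, black bars for the mean and SD of 3 arrays, and the range of the bacterial control probe sets in grey. The 3 SV5-NN4 arrays of Fosl1 sit above all SV5 and NIH 3T3 arrays, those of Spry2 sit below all SV5 arrays, and Etv5 lies at or next to the floor in every line.

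Fosl1 encodes Fra-1, a Fos-family partner in the AP-1 transcription factor. It read 7.94, 7.83 and 8.26 (log2, replicates 1 to 3) in SV5-NN4, against 6.62, 7.05 and 6.98 in SV5 and 7.49, 6.97 and 6.65 in NIH 3T3. The lowest SV5-NN4 array was thus above the highest array of each of the other lines, and SV5 and NIH 3T3 overlapped. The difference between SV5-NN4 and SV5 was 1.12 (log2, SE 0.25, 95% interval 0.53 to 1.71, 2.18-fold), with pairs at 1.32, 0.78 and 1.27 and an adjusted p of 0.099 in limma. Groups that do not overlap were found for 2 of the 9 members in this comparison, Fosl1 and Spry2, and for 9.06% of all genes. The other Fosl1 probe set, which was dim, averaged 4.96 ± 0.18 in SV5-NN4, 4.98 ± 0.15 in SV5 and 4.89 ± 0.21 in NIH 3T3 (SD, n = 3 each). Its difference between SV5-NN4 and SV5 was -0.02 (SE 0.17), so the higher Fosl1 signal was seen at 1 of 2 probe sets.

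Spry2 encodes Sprouty 2, a membrane-associated inhibitor of receptor tyrosine kinase signalling that ERK activity induces. It had log2 levels of 8.66, 8.35 and 7.1 in SV5-NN4, against 9.1, 9.53 and 8.93 in SV5 and 9.01, 9.67 and 8.11 in NIH 3T3. All SV5-NN4 arrays lay below all SV5 arrays, and they overlapped those of NIH 3T3. The difference between SV5-NN4 and SV5 was -1.15 (log2, SE 0.27, 95% interval -1.77 to -0.52), with pairs at -0.44, -1.18 and -1.82 and an adjusted p of 0.11 in limma. The dimmer Spry2 probe set averaged 5.34 ± 0.34 in SV5-NN4, 5.49 ± 0.41 in SV5 and 5.52 ± 0.44 in NIH 3T3 (SD, n = 3 each), with a difference of -0.15 (SE 0.17) between SV5-NN4 and SV5.

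Ier3, an early response gene linked to cell survival, had log2 levels of 7.63, 7.99 and 9.7 in SV5-NN4, against 6.58, 7.98 and 7.33 in SV5 and 7.15, 7.63 and 7.29 in NIH 3T3. Replicate 3 of SV5-NN4 stood above every other array, and SV5-NN4 and SV5 overlapped. The difference between SV5-NN4 and SV5 was 1.14 (log2, SE 0.44, 95% interval 0.12 to 2.17, adjusted p = 0.32 in limma), with pairs at 1.05, 0.01 and 2.38. Without SV5-NN4 replicate 3 it was 0.51. Phlda1, a pleckstrin homology-like protein induced by growth factors, read 10.09, 9.33 and 9.6 in SV5-NN4, against 9.54, 8.35 and 9.17 in SV5 and 9.97, 8.79 and 8.82 in NIH 3T3. Here the groups overlapped, but SV5-NN4 was above SV5 in each pair, by 0.55, 0.99 and 0.43. The Phlda1 difference was 0.65 (log2, SE 0.19, 95% interval 0.21 to 1.1, adjusted p = 0.18 in limma).

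The same sign in 3 of 3 pairs was seen for 6 members, Fosl1, Ier3, Phlda1, Spred1, Spry2 and Etv5, and for 42.5% of all genes. Etv5 lay at or next to the floor, so its sign carries little weight. The Actb and Gapdh 3' minus 5' differences were also larger in SV5-NN4 in all 3 pairs of this comparison, and 7 of 8 fibroblast markers were lower; their part in these results was not tested.

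**Figure D2:**
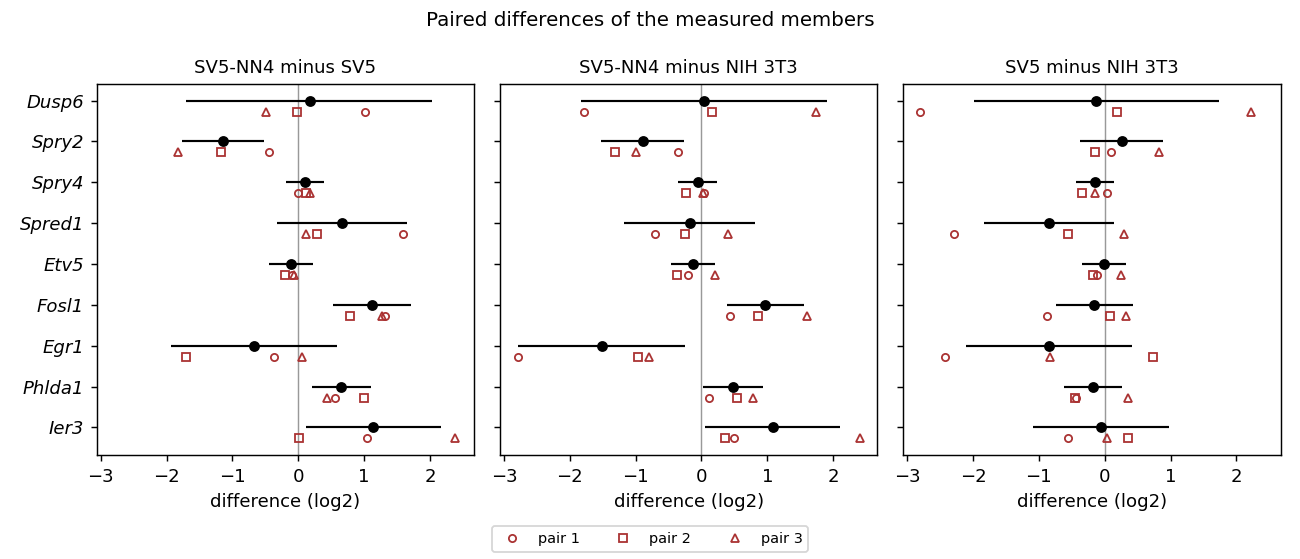
Differences of the measured members in the 3 comparisons on the log2 scale, with filled points for the paired limma estimate, horizontal lines for its 95% interval and open symbols for each pair of equal-numbered arrays. For SV5-NN4 minus SV5 the intervals of Fosl1, Ier3 and Phlda1 lie above 0 and that of Spry2 below 0, while none of these passed the adjusted test.

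The fit with only the 6 arrays of SV5-NN4 and SV5 gave the same differences with another estimate of the spread. There 3 members were called, Fosl1 (adjusted p = 0.012), Phlda1 (adjusted p = 0.048) and Spry2 (adjusted p = 0.049), all in limma, where 7.83% of all genes were called. Without NIH 3T3 replicate 1, the array that paired most weakly, Fosl1 was called as well (adjusted p = 0.018 in limma, with 5.13% of all genes called). Whichever other array was left out, 0 members were called.

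The remaining members gave small or scattered differences between SV5-NN4 and SV5. Egr1, an early zinc finger transcription factor that serum induces within minutes, had log2 levels of 6.56, 9.44 and 8.03 in SV5-NN4, against 6.93, 11.14 and 7.99 in SV5 and 9.35, 10.41 and 8.82 in NIH 3T3. Replicate 2 was the highest array in every line, and 65.1% of the variance of Egr1 lay between replicate numbers, against 18.6% between lines. Its difference between SV5-NN4 and SV5 was -0.67 (SE 0.54, adjusted p = 0.76 in limma), and with single arrays left out it ran from -1.15 without SV5 replicate 1 to -0.03 without SV5 replicate 2. Dusp6, the cytoplasmic ERK phosphatase, read 7.04, 6.52 and 8.61 in SV5-NN4, against 6.02, 6.54 and 9.1 in SV5 and 8.82, 6.36 and 6.87 in NIH 3T3. In each line 1 array was far above the other 2, and 0.4% of the variance of Dusp6 lay between lines. The Dusp6 difference of 0.17 had a 95% interval of -1.7 to 2.03, so that a change of several-fold in either direction would not have been detectable with these arrays.

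Spred1, a Sprouty-related inhibitor that brings the Ras-GTPase activator neurofibromin to the membrane, had log2 levels of 9.89, 10.35 and 9.77 in SV5-NN4, against 8.3, 10.06 and 9.65 in SV5 and 10.59, 10.6 and 9.36 in NIH 3T3. SV5 replicate 1 stood below the other 8 arrays. The difference between SV5-NN4 and SV5 was 0.67 (SE 0.42, adjusted p = 0.64 in limma) and was 0.07 without that array and 1.09 without SV5 replicate 3. At the other Spred1 probe sets the difference was -0.19 (SE 0.41) and 0.16 (SE 0.15). Spry4, another Sprouty inhibitor, was dim, at 4.89 ± 0.32 in SV5-NN4, 4.79 ± 0.32 in SV5 and 4.94 ± 0.47 in NIH 3T3 (log2 mean and SD, n = 3 each). Etv5, an Ets-family transcription factor, averaged 4.17 ± 0.05 in SV5-NN4, 4.29 ± 0.06 in SV5 and 4.3 ± 0.24 in NIH 3T3, at or next to the floor of 3.18 to 4.25. Differences of Etv5 therefore could not be measured here. For Spry4 the interval of the difference between SV5-NN4 and SV5 was -0.19 to 0.39. The dimmer probe set of Spry4 differed by -0.02 (SE 0.11) in that comparison, and that of Etv5 by -0.08 (SE 0.12).

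The comparison of SV5-NN4 with NIH 3T3 asks how the line with both added genes differs from its parent. It shares the SV5-NN4 arrays with the comparison above, so its values for SV5-NN4 are not a second measurement. Fosl1 was 1.96-fold higher in SV5-NN4, Ier3 2.12-fold and Phlda1 1.39-fold, while Egr1 was 2.86-fold lower and Spry2 1.86-fold lower. Of the 9 members 0 were called in limma, where 1.96% of all genes were called, and 5 reached an unadjusted p under 0.05, where 19.4% of all genes did. Differences of 2-fold or more were found for 2 members, Egr1 and Ier3, and for 3.23% of all genes. In the pairs of this comparison the 3' minus 5' difference was -0.18, 0.2 and -1.4 for Actb and 0.02, 0.53 and -2.16 for Gapdh (log2), and its part in these results was not tested.

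Fosl1 differed by 0.97 (log2, SE 0.25, 95% interval 0.38 to 1.56, adjusted p = 0.11 in limma) between SV5-NN4 and NIH 3T3, with pairs at 0.44, 0.86 and 1.6, and by 0.69 without NIH 3T3 replicate 3, whose Gapdh difference stood apart. It was the 1 member whose groups did not overlap, where 7.11% of all genes had groups that did not overlap. Without NIH 3T3 replicate 1 the difference was 1.28 and was called (adjusted p = 0.017 in limma, with 6.12% of all genes called). Egr1 differed by -1.51 (SE 0.54, 95% interval -2.78 to -0.25, adjusted p = 0.21 in limma). The pairs of Egr1 were -2.79, -0.97 and -0.79, and without NIH 3T3 replicate 1 the difference was -0.8. Spry2 differed by -0.89 (SE 0.27, adjusted p = 0.15 in limma) with pairs at -0.35, -1.32 and -1. Ier3 differed by 1.09 (SE 0.44, adjusted p = 0.27 in limma), and by 0.45 without SV5-NN4 replicate 3 and 0.73 without NIH 3T3 replicate 3. Phlda1 differed by 0.48 (SE 0.19, adjusted p = 0.26 in limma), and by 0.27 without NIH 3T3 replicate 3. These 5 members had the same sign in 3 of 3 pairs, as did 37.6% of all genes. Dusp6, Spry4, Spred1 and Etv5 differed by 0.04, -0.05, -0.18 and -0.13, each with an interval that held 0. The dimmer Spry4 probe set, next to the floor, differed by -0.3 (SE 0.11, 95% interval -0.56 to -0.05, adjusted p = 0.22 in limma). Its pairs were -0.3, -0.24 and -0.37. The dimmer probe sets of Fosl1, Spry2 and Etv5 differed by 0.07, -0.18 and -0.22, and those of Spred1 by 0.26 and 0.02.

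**Figure D3:**
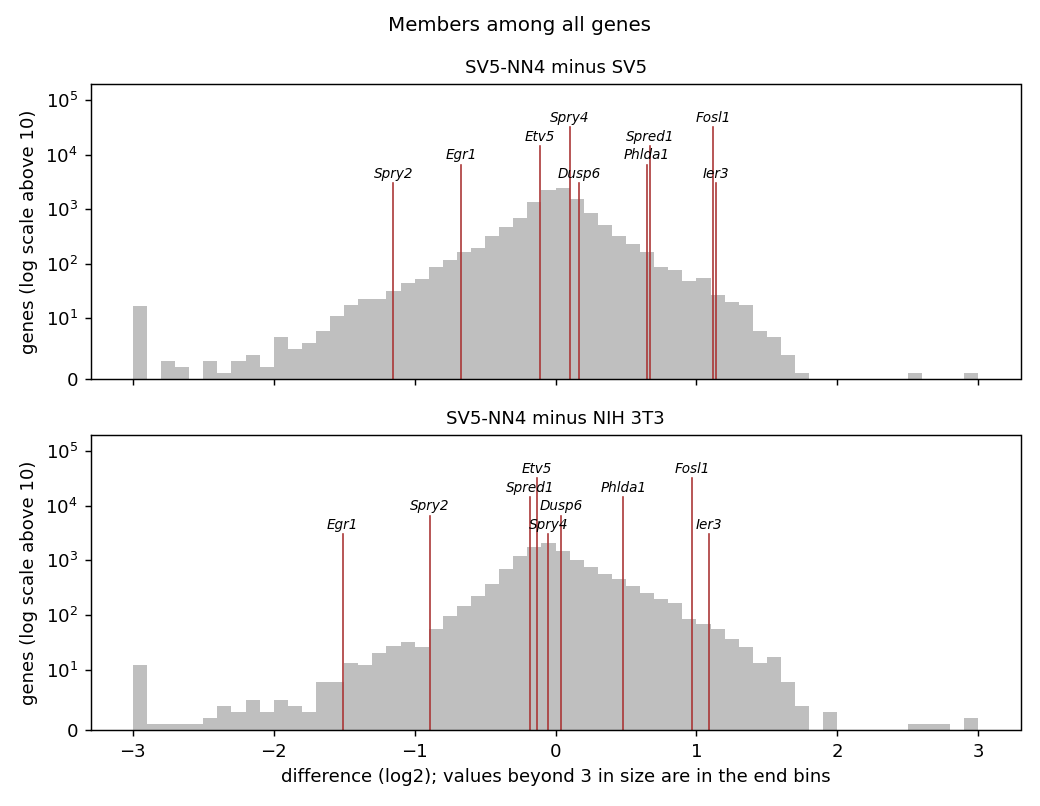
Number of genes by their log2 difference, each gene at its brightest probe set, for SV5-NN4 minus SV5 and SV5-NN4 minus NIH 3T3, with red lines at the measured members; the count axis is logarithmic above 10 and line heights only separate the names. Fosl1 and Ier3 lie at 1.12 and 1.14 in the upper panel and Spry2 at -1.15, in the outer parts of the distribution.

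The comparison of SV5 with NIH 3T3 asks how T antigen-transformed cells differ from the parent. No member met any of the thresholds used at its brightest probe set. Of the 9 differences 8 were below 0 and 1, that of Spry2, above 0, and the 95% interval of each held 0. Those below 0 included -0.01 for Etv5 and -0.06 for Ier3. The median was -0.15 for the members and -0.03, also below 0, for all genes (log2). Of the 9 members 0 were called in limma, where 0.0484% of all genes were called, and 0 reached an unadjusted p under 0.05, where 15% of all genes did. Differences of 2-fold or more were found for 0 members and 1.31% of genes, non-overlapping groups for 0 members and 4.58% of genes, and the same sign in 3 of 3 pairs for 0 members and 30.7% of genes. Spred1 differed by -0.85 (SE 0.42, pairs -2.29, -0.55 and 0.3) and Egr1 by -0.84 (SE 0.54, pairs -2.42, 0.73 and -0.83). The first pair, which holds NIH 3T3 replicate 1 and SV5 replicate 1, gave the lowest value for both. With single arrays left out, Spred1 ran from -1.28 without NIH 3T3 replicate 3 and -1.27 without SV5 replicate 3 to -0.35 without NIH 3T3 replicate 1 and -0.25 without SV5 replicate 1. Egr1 ran from -1.49 without SV5 replicate 2 and -1.37 without NIH 3T3 replicate 2 to -0.37 without SV5 replicate 1 and -0.13 without NIH 3T3 replicate 1. The other Spred1 probe sets differed by 0.45 (SE 0.41) and -0.15 (SE 0.15), and the mean of its probe sets by -0.18. Fosl1 differed by -0.16 (95% interval -0.74 to 0.43), Phlda1 by -0.17 (-0.62 to 0.27), Ier3 by -0.06 (-1.09 to 0.97) and Spry2 by 0.26 (-0.37 to 0.88). The dimmer Spry4 probe set, next to the floor, differed by -0.28 (SE 0.11, 95% interval -0.54 to -0.03, adjusted p = 0.31 in limma). Its pairs were -0.31, -0.24 and -0.3. The dimmer probe sets of Fosl1, Spry2 and Etv5 differed by 0.09, -0.03 and -0.14. In the pairs of this comparison the 3' minus 5' difference of Actb was -0.52, -0.1 and -2.65 (log2). That of Gapdh was -0.19, 0.04 and -2.84, and the part of either in these results was not tested.

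The order of the lines differed between members. Fosl1, Ier3 and Phlda1 had their highest mean in SV5-NN4, with SV5 and NIH 3T3 apart by less than their spread. Spry2 had its lowest mean in SV5-NN4, at 8.04 ± 0.82 (log2, SD, n = 3), against 9.19 ± 0.31 in SV5 and 8.93 ± 0.79 in NIH 3T3. Egr1 averaged 8.01 ± 1.44 in SV5-NN4, 8.68 ± 2.19 in SV5 and 9.53 ± 0.81 in NIH 3T3, and neighbours in that order did not differ beyond their spread. Line accounted for 79.7% of the variance of Fosl1, 43.9% of Spry2, 41.3% of Ier3, 29.1% of Spred1 and 26.1% of Phlda1. Its share was 18.6% for Egr1, 18.4% for Etv5, 4% for Spry4 and 0.4% for Dusp6. The median over all genes was 14.9%.

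After the mean of each replicate number was subtracted, Fosl1 correlated with Ier3 (r = 0.88) and Phlda1 (r = 0.87) and inversely with Spry2 (r = -0.78) over the 9 arrays. The arrays share 3 lines and 3 replicate numbers, so these values describe the arrays and are no test. Fosl1 had the largest F statistic for line among the members, at 11.8. The 5 genes most like it by the same measure, among 7472 genes whose highest line mean reached the median probe set level, were Cdc6 (r = 0.992), Hmgn5 (r = 0.992), Aurkb (r = 0.99), Cxcl5 (r = 0.982) and Mms22l (r = 0.981).

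Other genes of the pathway were counted in 3 lists. Among 15 measured feedback regulators of ERK and receptor kinases other than the members, 0 were called between SV5-NN4 and SV5, where 1.05% of all genes were called, with a median difference of -0.07 (log2), against 0.01 for all genes. At an unadjusted p under 0.05 in limma, 1 was higher and 3 were lower. Among 35 measured other early and output genes, 0 were called in that comparison, with a median of -0.05, and 4 were higher and 1 lower at an unadjusted p under 0.05. These counts stand beside 14.6% of all genes at that threshold, and the 5 of 35 output genes lay near that share. Among 24 measured genes of the cascade itself, 1 was called, Pdgfra, and the median was 0.01. The members had a median of 0.17.

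Pdgfra, which encodes the alpha receptor for platelet-derived growth factor, was the 1 called cascade gene. It had log2 levels of 10.06, 9.9 and 10.75 in SV5-NN4, against 11.99, 12.22 and 12.81 in SV5 and 11.38, 10.94 and 11.99 in NIH 3T3. All SV5-NN4 arrays lay below all arrays of the other lines. Pdgfra fell by 2.1 in SV5-NN4 relative to SV5 (SE 0.15, adjusted p = 0.0032 in limma) and by 1.2 relative to NIH 3T3 (SE 0.15, adjusted p = 0.022). The call relative to SV5 was lost without SV5-NN4 replicate 2 (adjusted p = 0.057), and that relative to NIH 3T3 without any single SV5-NN4 array or without NIH 3T3 replicate 2 or 3 (adjusted p up to 0.16). Its dimmer probe set differed by -0.7 (SE 0.28, adjusted p = 0.35) and -0.27 (SE 0.28, adjusted p = 0.69) and was not called in limma.

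Between SV5-NN4 and NIH 3T3, 1 of the 15 other feedback regulators and 2 of the 35 other output genes were called, all lower, and Pdgfra of the 24 cascade genes, where 1.96% of all genes were called. At an unadjusted p under 0.05, where 19.4% of all genes lay, 2 feedback regulators were higher and 2 lower, 1 other output gene was higher and 5 lower, and 2 cascade genes were higher and 4 lower. Dusp10, a phosphatase that acts mainly on the stress kinases JNK and p38, fell by 1.06 (log2, SE 0.19, adjusted p = 0.046 in limma), with -0.25 at its other probe set. Jund, an AP-1 subunit that restrains growth in fibroblasts, fell by 0.84 (SE 0.15, adjusted p = 0.046), and Atf3, a stress-induced transcription factor, fell by 1.11 (SE 0.18, adjusted p = 0.04), all in limma. The level of Atf3 in SV5-NN4, 4.7, 4.45 and 4.17, was close to the floor. The calls of Dusp10 and Jund were lost whichever single array was left out except NIH 3T3 replicate 1, and that of Atf3 except NIH 3T3 replicate 1 or 3, with adjusted p up to 0.25, 0.23 and 0.2. Between SV5 and NIH 3T3, 0 genes of the 3 lists were called in limma. At an unadjusted p under 0.05, where 15% of all genes lay, 3 feedback regulators were higher and 2 lower, 0 other output genes were higher and 1 lower, and 2 cascade genes were higher and 0 lower.

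**Figure D4:**
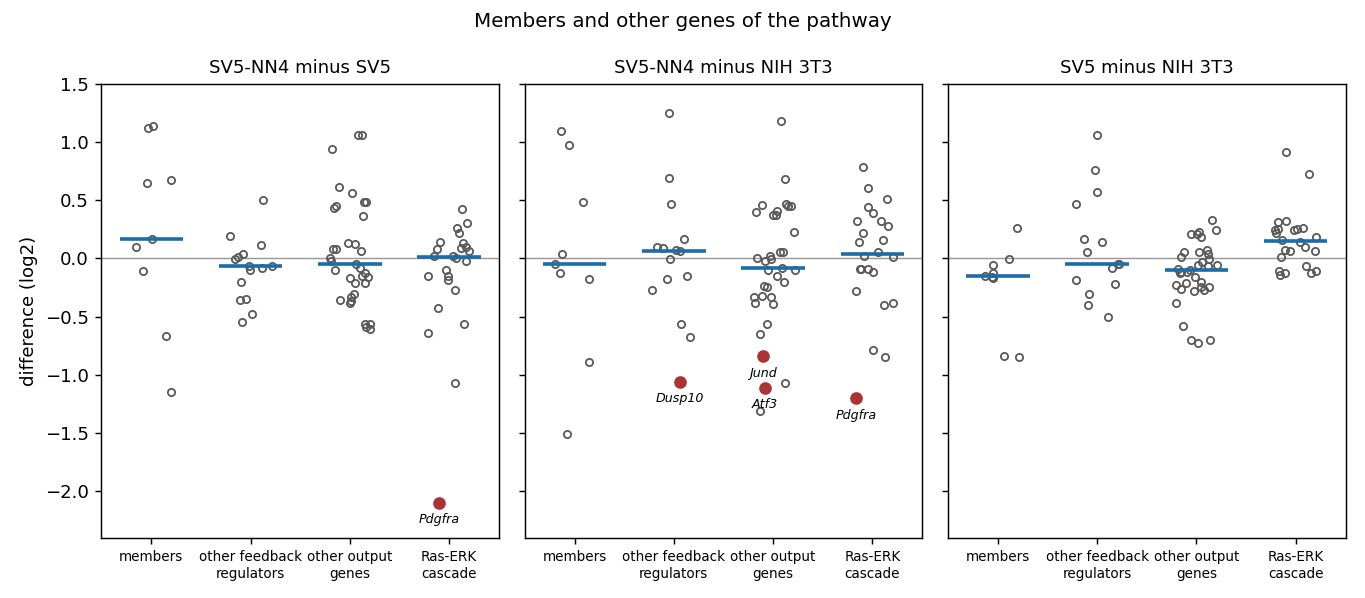
Log2 differences of the measured members and of 3 lists of other pathway genes in the 3 comparisons, with 1 circle a gene, blue bars for the median and filled red circles for genes called at an adjusted p under 0.05 in limma. No member is called, Pdgfra is called in both comparisons of SV5-NN4, and Dusp10, Jund and Atf3 are called lower in SV5-NN4 than in NIH 3T3.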

How the data were processed

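The deposited values are probe set intensities on a linear scale, made with RMA per the submitters' processing notes, which state neither version nor settings. The deposited arrays differed in their upper quartiles, and no further normalization was applied except in the alternatives. Intensities were used as log2(intensity + 1). The platform annotation gave 1 symbol to 20380 probe sets other than array controls, several to 691 and none to 1606. Array controls that carried 1 symbol were not used for genes. Groups and replicate numbers came from the sample titles. limma 3.58.1 in R 4.3.3 was fitted to all 22690 probe sets and 9 arrays with 1 mean per line and the replicate number as a block, followed by eBayes, with Benjamini-Hochberg adjustment across the whole table, and a gene was called at an adjusted p under 0.05. The script was tested on simulated data.

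The pairing comes from the data: after group means were subtracted, arrays of different lines with equal numbers (9 pairs) correlated across probe sets with r from 0.26 to 0.84, against -0.73 to 0.11 for the 18 other pairs. Deviations within a line cancel out after that subtraction, so positive values at equal numbers push the others down. These ranges are therefore not independent of each other. The members, the lists, the tests and the paired fit were chosen with earlier results of these data known. The text names all measured members, called genes of the 3 lists (up to 5 per list and comparison), Nras as the added gene, and the 5 genes most like the member with the largest F statistic for line. With 3 arrays per line, precision is limited by that number.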

Additional observations from a re-analysis of the deposited data

How the results depend on the processing

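The number of members called was 0 in all 3 comparisons and stayed 0 without the replicate block, with a pseudocount of 16, an intensity trend and robust prior, arrays centred on their medians, quantile normalization, brighter probe sets only or averaged probe sets per gene. It was 3 between SV5-NN4 and SV5 with only the arrays of the compared lines. With single arrays left out it was 0 to 1 for SV5-NN4 against SV5 and against NIH 3T3 and 0 to 0 for SV5 against NIH 3T3. Without the replicate block the differences of all members were the same and their errors the same or larger, with a Fosl1 difference of 1.12 (SE 0.25, adjusted p = 0.35 in limma) and a Spry2 difference of -1.15 (SE 0.49, adjusted p = 1) between SV5-NN4 and SV5, and the calls of Pdgfra (adjusted p = 0.17 against SV5 and 0.66 against NIH 3T3), Dusp10, Jund and Atf3 (0.65, 0.85 and 0.67) were lost.

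The differences of Fosl1, Ier3, Phlda1 and Spry2 between SV5-NN4 and either other line kept their sign in every setting run, at 0.89 to 1.27, 0.51 to 1.61, 0.5 to 0.84 and -1.46 to -0.84 against SV5 with single arrays left out. With a gene's probe sets averaged, the Fosl1 difference against SV5 was 0.55 and that of Spry2 was -0.65. Signs of members turned only where the difference was at most 0.26 in size. Quantile normalization gave -0.03 for Dusp6 and 0.02 for Spry4 between SV5-NN4 and NIH 3T3, and 0.07 for Etv5 between SV5 and NIH 3T3, and averaged probe sets gave 0.03 for Spred1 between SV5-NN4 and NIH 3T3; the cause was not tested. With single arrays left out, Dusp6 ranged from -0.71 to 0.92 (SV5-NN4 minus SV5), -0.98 to 1.16 (SV5-NN4 minus NIH 3T3) and -1.14 to 1 (SV5 minus NIH 3T3). Between SV5-NN4 and NIH 3T3, Spred1 ranged from -0.61 to 0.31 and Spry4 from -0.12 to 0.04. Between SV5 and NIH 3T3, Etv5 ranged from -0.16 to 0.09, Fosl1 from -0.44 to 0.16, Ier3 from -0.44 to 0.23 and Spry2 from -0.05 to 0.47. Nras ranged from -0.03 to 0.2 between SV5-NN4 and SV5. Alternatives for Pdgfra, Dusp10, Jund, Atf3 and Nras were chosen after seeing the data. With only the arrays of the compared lines, the calls against NIH 3T3 of Pdgfra, Dusp10, Jund and Atf3 were lost (adjusted p = 0.078, 0.13, 0.14 and 0.11 in limma), and Atf3 also with quantile normalization (0.057). Between SV5-NN4 and SV5, the fit with only the arrays of those lines called Dusp10 lower (-0.55, adjusted p = 0.039 in limma). There 7.83% of all genes were called. Signal near the floor limits Etv5 and Spry4.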
